A study of Ascaris suum with 9 samples.

Results

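A group of 85 genes kept 8.91% to 48.6% of their control level in Ascaris suum larvae after 3 hours of biochanin A, and 6.07% to 56.1% after 3 hours of red clover extract. They were found among the 17974 genes of the deposited table, of which 15177 had enough reads to be tested. The members were chosen by their CPM (read counts relative to the library total, scaled between libraries with TMM, the trimmed mean of M-values). A member had a control mean of at least 4 CPM, a log2 ratio to control of at most -1 with biochanin A and of at most -0.8 with extract, both with 0.5 CPM added, and a lower value in every treated library than in any control library. Identifiers beginning AgE and the 150 genes with the highest control mean were left out, although none of either kind met the other limits. The rule used both comparisons with control, so the depth of the falls is described here without a test, and only the difference between the treatments is tested. That test is not free of the rule, which used the values of all treated libraries. Genes that only 1 treatment lowered to its limit were left out.

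The 9 libraries were made from whole larvae in 3 groups of 3: biochanin A at 100 µM, red clover extract at 200 µg/mL, and the control solvent alone, each for 3 hours. No source used here states the solvent, the larval stage, the number of larvae per library or the amount of biochanin A in the extract, so the doses cannot be matched. Library totals ran from 44324212 to 53786882 counts. Libraries of one group differed by more than sampling noise, with chi-square values per degree of freedom between 17.1 and 124.1, the highest for extract replicates 1 and 3.

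Ascaris suum is the large intestinal roundworm of pigs, whose larvae hatch in the gut, migrate through the liver and lungs and return to the small intestine. Biochanin A is an O-methylated isoflavone, one of the plant phenolics that red clover and other legumes make. The amount of a transcript depends on how fast it is made and how fast it is degraded, and a short exposure can lower it through either. Counts of whole larvae cannot tell fewer cells of a type from less RNA per cell. The table pairs no identifier with a gene name, so the members are given by identifier, no role is assigned to any of them, and the lists of product names prepared for markers, detoxification, cuticle and other functions could not be applied.

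Of 10655 genes within the abundance limits, 185 met the limit for biochanin A and 193 that for extract, and 85 met both. Had CPM been taken from library totals without TMM, 181 genes would have met the rule, all 85 among them. With TMM all 85 also had no overlap between treated and control libraries, so the last condition removed none. Over the 10655 genes, every treated library lay below every control library for 14.7%. Closest to the limit for biochanin A, AgR005_g130 had a log2 ratio of -1.01, and AgR018X_g248, with -0.999 and an extract ratio of -1.38, just missed it. Closest to the limit for extract, AgB04_g220 had -0.82 and AgR247X_g001 missed it with -0.78. At the abundance limit, AgR022_g173 averaged 4.05 CPM in control and AgR070_g002 missed it with 3.98 CPM. The smallest gap between treated and control libraries was that of AgR030_g050, with a highest treated value of 2.91 CPM and a lowest control value of 3.08 CPM.

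**Figure D1:**
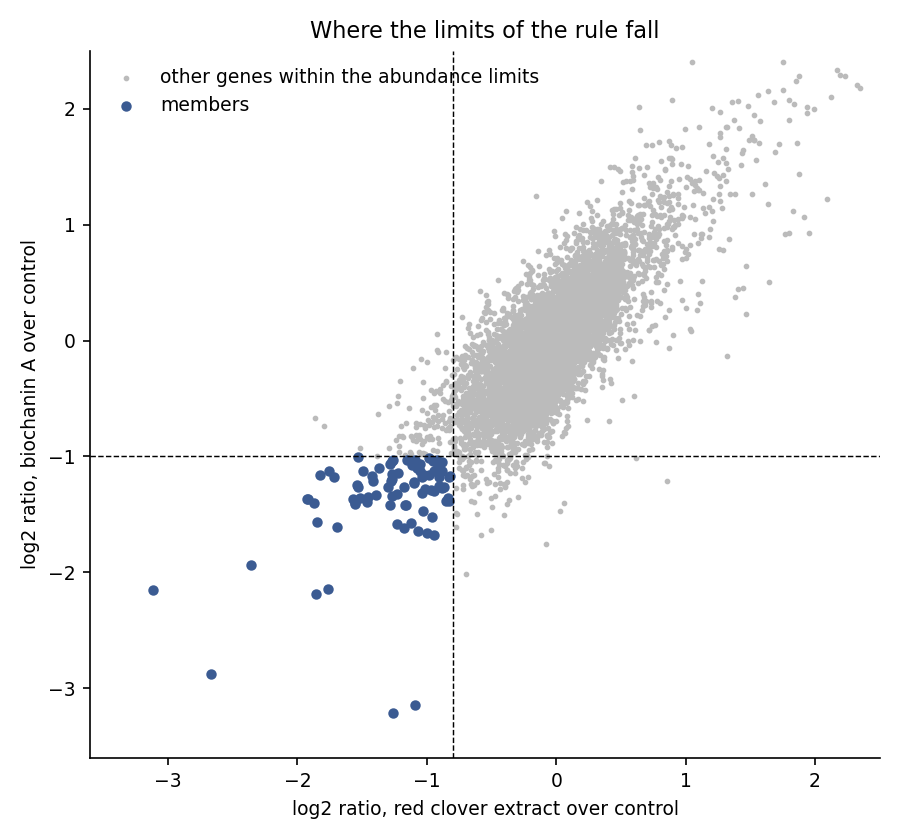
Log2 ratio of biochanin A to control (vertical axis) against that of red clover extract to control (horizontal axis), with 0.5 CPM added, for genes within the abundance limits, where each point is 1 gene and dashed lines mark the limits of -1 and -0.8. The 85 members (blue) are all the points of the lower left corner, with AgR003_g168 (-2.67 and -2.88) and AgR002_g419 (-3.11 and -2.15) far from both lines. Both axes share the 3 control libraries, and 7 other genes lie outside the plotted range.

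The median member kept 38.5% of its control mean with biochanin A and 41.3% with extract. In the fit over all tested genes 85 of 85 were called lower with biochanin A, where 18.3% of tested genes were, and 84 of 85 with extract, where 8% were, counts that the rule itself brings about. The exception was AgR030_g050, with an adjusted p of 0.064 for extract against control in edgeR's quasi-likelihood test. With biochanin A 6 members were at or below 25% of control, with extract 11, and with both treatments 4. With extract 71 members stayed at or below 50%.

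**Figure D2:**
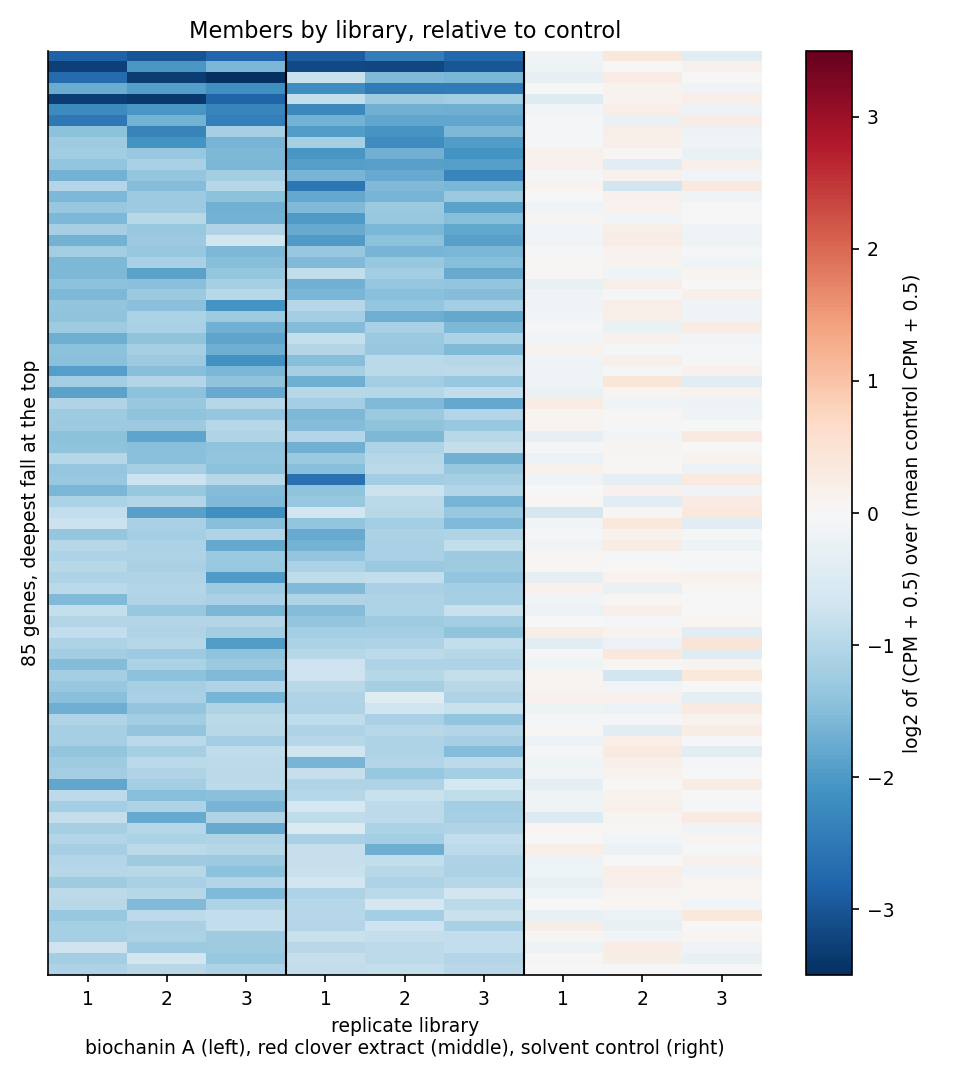
Log2 of CPM over the control mean, with 0.5 CPM added to both, for the 85 members (rows, deepest summed fall at the top) in the 3 biochanin A, 3 red clover extract and 3 solvent control libraries (columns). Blue is below and red above the control mean. All treated columns are blue in all rows, as the rule requires, while control columns vary around white.

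Together the members drew 624, 621 and 600 CPM in the biochanin A libraries, 633, 638 and 622 CPM in the extract libraries, and 1595, 1678 and 1625 CPM in the control libraries. The sum was nearly the same in all 6 treated libraries. Without AgR001_g489 and AgR005_g132, the members with the most reads, it was 490 to 516 CPM with biochanin A, 534 to 555 CPM with extract and 1259 to 1336 CPM in control. Most members had modest counts: the control means ran from 4.05 to 199.8 CPM with a median of 11.8 CPM, against 37.6 CPM over the 10655 genes within the abundance limits. In control 34 members (40.0%) averaged under 10 CPM, against 15.9% of the genes within those limits. The lowest count of any member in a treated library was 20, and 31 members had a treated library with fewer than 100 counts.

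The deepest falls over both treatments were those of AgR003_g168 and AgR002_g419. AgR003_g168 had 2.65, 2.29 and 2.81 CPM with biochanin A, 2.59, 3.73 and 2.84 CPM with extract, and 20.3, 29.1 and 16.96 CPM in control. Its treated libraries were alike, at 11.7% of control with biochanin A and 13.8% with extract. The log2 difference of extract against biochanin A was 0.25 ± 0.22 (SE), with a 95% interval of -0.21 to 0.71 and an adjusted p of 0.52 in edgeR's quasi-likelihood test.

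AgR002_g419 had 0.396, 1.57 and 2.33 CPM with biochanin A, 0.454, 0.446 and 0.569 CPM with extract, and 7.11, 8.08 and 9.02 CPM in control. The extract libraries were uniformly low, while biochanin A replicate 1 was as low as they were and the other two lay above them. The log2 difference of -1.52 ± 0.44 (SE) reached an adjusted p of 0.026 in edgeR's quasi-likelihood test. The call was lost without biochanin A replicate 2 (adjusted p 0.078) or 3 (0.19) and without extract replicate 1 (0.063) or 2 (0.091), with only the 2 treatments in the fit (0.11), and with limma voom (0.35). Without biochanin A replicate 3 the difference was -0.98.

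AgR015_g211 and AgR007_g295 were the other members at or below 25% of control with both treatments. AgR015_g211 averaged 0.974 ± 0.152 CPM with biochanin A, 1.35 ± 0.39 CPM with extract and 6.21 ± 0.998 CPM in control (SD, n = 3 each). AgR007_g295 averaged 1.44 ± 0.66 CPM with biochanin A, 2.01 ± 0.19 CPM with extract and 8.05 ± 1.52 CPM in control. Neither was called between the treatments, at adjusted p-values of 0.35 and 0.32 in edgeR's quasi-likelihood test, with 95% intervals from -0.18 to 1.14 and from -0.15 to 1.12.

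AgR001_g489 drew the most reads of all members and was still not among the 150 genes left out, at rank 853 by control mean. It had 59.6, 52.0 and 44.3 CPM with biochanin A, 43.6, 35.6 and 36.5 CPM with extract, and 198.1, 219.0 and 182.2 CPM in control. Extract lowered it further than biochanin A, with every extract library below every biochanin A library, by a log2 difference of -0.43 ± 0.10 (SE, adjusted p = 0.0075 in edgeR's quasi-likelihood test). Without biochanin A replicate 1 the adjusted p was 0.055. AgR005_g132 had 53.7, 53.4 and 64.9 CPM with biochanin A, 44.5, 48.1 and 51.3 CPM with extract, and 137.2, 122.5 and 128.2 CPM in control. Its log2 difference of -0.25 ± 0.08 had an adjusted p of 0.051, and of 0.029 to 0.285 over the 16 alternatives, 7 of which called it.

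Between the 2 treatments 9 of the 85 members differed in edgeR's quasi-likelihood test, of which 6 were higher and 3 lower with extract. That is 7.06% and 3.53% of the members, where 7.37% and 7.39% of all tested genes were called in those directions. Of the non-members within the abundance limits, 10.2% were called higher and 9.66% lower with extract. The members' shares are thus near or under those of all tested genes, and under those of these non-members. The rule asked for a fall with both treatments, which bears on the members' shares. An unadjusted p below 0.05 was found for 22, but the share over all tested genes was not computed, so this count has no reference. Without regard to the fit, every extract library lay above every biochanin A library for 11 members, and below for 7, where the shares over all tested genes were 17.2% and 17.8%. The median log2 difference over the members was 0.11, against -0.00049 over all tested genes. The limits of the rule were unequal, -1 with biochanin A and -0.8 with extract, and among the 61 members that also met -1 for extract the median was -0.07. Of the members called higher with extract, AgR022_g094, AgR022_g095 and AgB04_g220 did not meet -1 for extract. The members called lower with extract all met it. AgR022_g095 missed it narrowly, with an extract ratio of -0.99987. Limits of -0.8 for both treatments were not tried. Whether the unequal limits account for the larger number called higher was not tested.

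For the other 76 members a difference between the treatments was not called. The 95% interval of the log2 difference reached a median of 0.47 to either side of the estimate over all members. The interval excluded a 2-fold difference in either direction for 59 of the 76, and a 1.5-fold difference for 26.

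**Figure D3:**
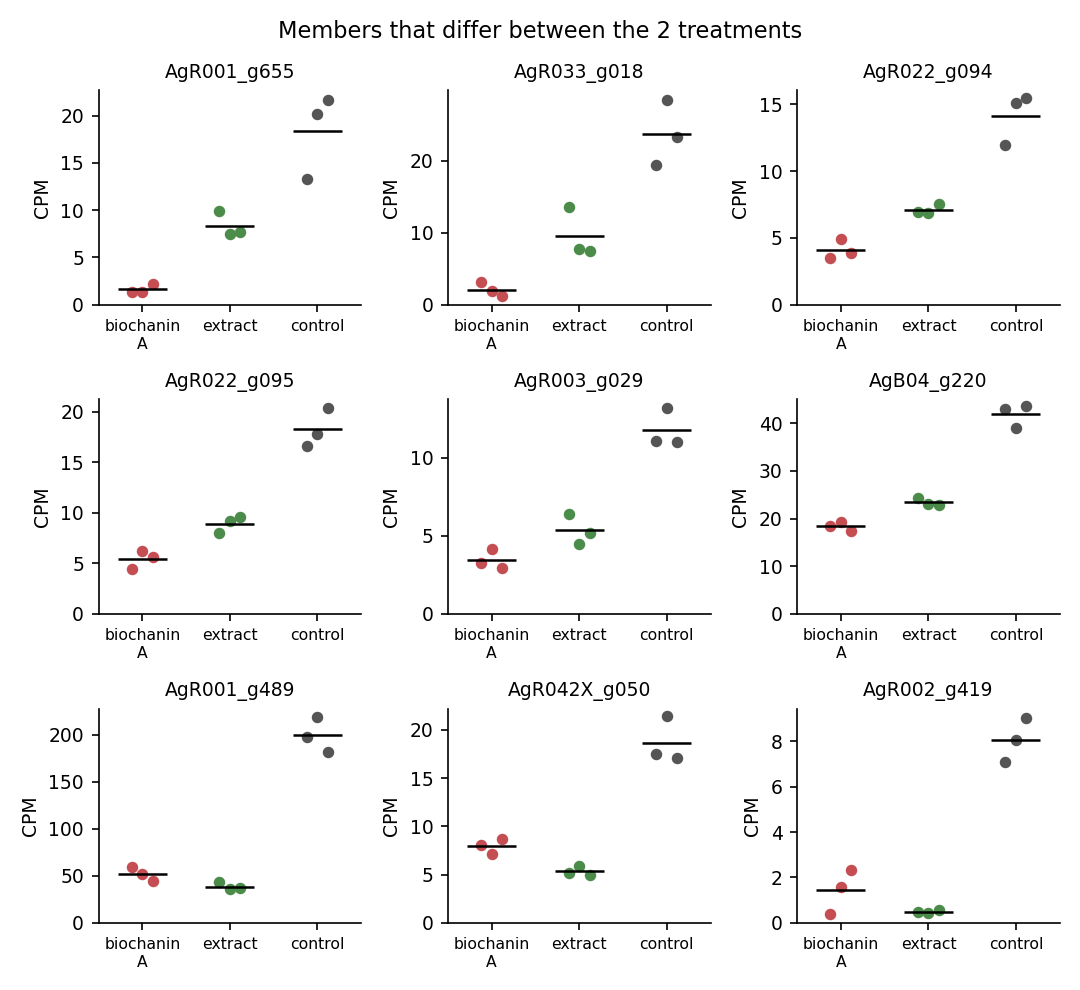
CPM in each library (points) and group mean (line) for the 9 members called between extract and biochanin A, with biochanin A, red clover extract and solvent control from left to right and each vertical axis starting at 0. The first 6 panels show members higher with extract than with biochanin A, the last 3 members lower with extract, and in all 9 every treated library lies below every control library.

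AgR001_g655 and AgR033_g018 differed most between the treatments and were the members that biochanin A lowered furthest. AgR001_g655 had 1.39, 1.30 and 2.23 CPM with biochanin A, 9.95, 7.44 and 7.65 CPM with extract, and 13.3, 20.2 and 21.6 CPM in control. The 3 groups did not overlap, with extract at 45.4% of control and biochanin A at 8.92%. AgR033_g018 had 3.23, 1.91 and 1.21 CPM with biochanin A, 13.6, 7.76 and 7.49 CPM with extract, and 19.4, 28.4 and 23.4 CPM in control. Its groups did not overlap either. The log2 difference of extract against biochanin A was 2.36 ± 0.24 (SE) for AgR001_g655 and 2.17 ± 0.30 for AgR033_g018, with adjusted p-values of 3.0e-06 and 0.00015 in edgeR's quasi-likelihood test, and both calls held under all 16 alternatives.

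AgR022_g094 and AgR022_g095, with consecutive identifiers, were both higher with extract than with biochanin A. AgR022_g094 had 3.46, 4.93 and 3.85 CPM with biochanin A, 6.93, 6.87 and 7.57 CPM with extract, and 11.97, 15.1 and 15.4 CPM in control, a log2 difference between the treatments of 0.81 ± 0.19. AgR022_g095 had 4.47, 6.19 and 5.65 CPM with biochanin A, 7.95, 9.18 and 9.53 CPM with extract, and 16.6, 17.8 and 20.4 CPM in control, a difference of 0.72 ± 0.17. The extract libraries of both lay between the other groups without overlap, and the calls held under all 16 alternatives (adjusted p = 0.0062 and 0.0072 in edgeR's quasi-likelihood test).

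The other members called higher with extract, AgR003_g029 and AgB04_g220, rested on smaller differences. AgR003_g029 averaged 3.44 ± 0.61 CPM with biochanin A, 5.35 ± 0.96 CPM with extract and 11.8 ± 1.3 CPM in control (SD, n = 3 each). Its log2 difference of 0.64 had an adjusted p of 0.043 in edgeR's quasi-likelihood test, which was 0.065 without control replicate 1, 0.12 and 0.15 without biochanin A replicates 1 and 3, 0.17 and 0.095 without extract replicates 1 and 3, 0.071 with only the 2 treatments in the fit, and 0.11 with limma voom. AgB04_g220 averaged 18.4 ± 0.9 CPM with biochanin A, 23.5 ± 0.8 CPM with extract and 41.9 ± 2.5 CPM in control. Its log2 difference of 0.36 had an adjusted p of 0.021, and 0.051 to 0.081 without biochanin A replicate 1 or 3 or any extract replicate.

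AgR042X_g050 was the remaining member called lower with extract. It had 8.12, 7.13 and 8.68 CPM with biochanin A, 5.18, 5.88 and 4.92 CPM with extract, and 17.5, 21.4 and 17.1 CPM in control. The extract libraries lay below the biochanin A libraries, by a log2 difference of -0.58 ± 0.16 (SE, adjusted p = 0.022 in edgeR's quasi-likelihood test). The adjusted p was 0.062 and 0.086 without biochanin A replicates 1 and 3, 0.054 and 0.090 without extract replicates 1 and 3, and 0.066 with limma voom.

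Control libraries varied most for AgR030_g050 and AgR001_g506. AgR030_g050 had 2.45, 0.941 and 0.727 CPM with biochanin A, 2.91, 2.25 and 1.67 CPM with extract, and 3.08, 5.08 and 6.51 CPM in control. Control replicate 1 barely exceeded the highest treated library. Extract and biochanin A did not differ by test in this gene (log2 difference 0.72, adjusted p = 0.27 in edgeR's quasi-likelihood test), but without biochanin A replicate 1 the difference was 1.45 with an adjusted p of 0.031. AgR001_g506 had 3.70, 2.47 and 3.78 CPM with biochanin A, 0.977, 2.41 and 2.33 CPM with extract, and 8.81, 4.96 and 10.4 CPM in control, and here control replicate 2 was the low one. No single control library was low throughout: replicate 1 was the lowest control library for 34 members, replicate 2 for 21 and replicate 3 for 30. Shares of the lowest library were not computed over the genes within the abundance limits. Control replicate 2 was the highest for 41 members (48.2%), against 37.7% of the genes within the abundance limits. Replicate 1 was the highest for 17.6%, against 25.7%, and replicate 3 for 34.1%, against 36.6%.

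Some members had identifiers close to one another, and 13 of the 85 formed 6 runs of consecutive identifiers. Another member lay within 2 identifiers for 19 members and within 10 for 25. Such counts were not made for other sets of genes within the abundance limits, so whether this closeness is unusual cannot be told. Whether counting used strand is unstated, so reads of a gene and of another that overlaps it on either strand cannot be separated here, and identifier numbers were not checked against positions in a genome.

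Pooled over the libraries of a group, the counts of 2 consecutive members gave ratios, described here for treated and control larvae. Both genes of a pair were chosen for falls with both treatments. Similar ratios in treated and control larvae are therefore partly brought about by the rule. AgR023_g154 had 2.17 counts for each count of AgR023_g155 with biochanin A, 2.18 with extract and 2.285 in control, and 2.04 to 2.60 over the 9 libraries. AgR022_g094 had 0.754 counts per count of AgR022_g095 with biochanin A, 0.799 with extract and 0.774 in control, and 0.682 to 0.871 over the libraries. The ratios of AgB01_g701 to AgB01_g702 were 1.53 with biochanin A, 1.49 with extract and 1.53 in control, and those of AgR003_g028 to AgR003_g029 were 1.33, 1.18 and 1.26 in the same groups. Single libraries spread more widely, from 1.33 to 1.93 for the AgB01 pair and from 1.05 to 1.66 for the AgR003 pair.

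AgB06_g145 had 0.0890 counts per count of AgB06_g146 with biochanin A, 0.120 with extract and 0.117 in control, with 0.0510 in biochanin A replicate 3. The longest run was AgR018X_g026 to AgR018X_g028. AgR018X_g026 had 7.30, 8.99 and 9.28 CPM with biochanin A, 5.47, 8.61 and 9.28 CPM with extract, and 16.04, 20.2 and 17.4 CPM in control. AgR018X_g027 had 6.39, 7.19 and 7.90 CPM with biochanin A, 4.68, 7.72 and 7.92 CPM with extract, and 16.4, 18.7 and 16.2 CPM in control. The lowest library was extract replicate 1 for both genes, and their ratio was 1.19 with biochanin A, 1.15 with extract and 1.05 in control, and 0.981 to 1.25 over the libraries. AgR018X_g028 was lower, at 1.52, 1.84 and 0.776 CPM with biochanin A, 1.499, 2.39 and 2.31 CPM with extract, and 4.64, 5.84 and 4.802 CPM in control. The ratio of AgR018X_g027 to AgR018X_g028 was 5.08 with biochanin A, 3.28 with extract and 3.35 in control, and it reached 10.2 in biochanin A replicate 3, where AgR018X_g028 was lowest. None of the 3 genes was called between the treatments (adjusted p of 0.74, 0.86 and 0.27 in edgeR's quasi-likelihood test).

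**Figure D4:**
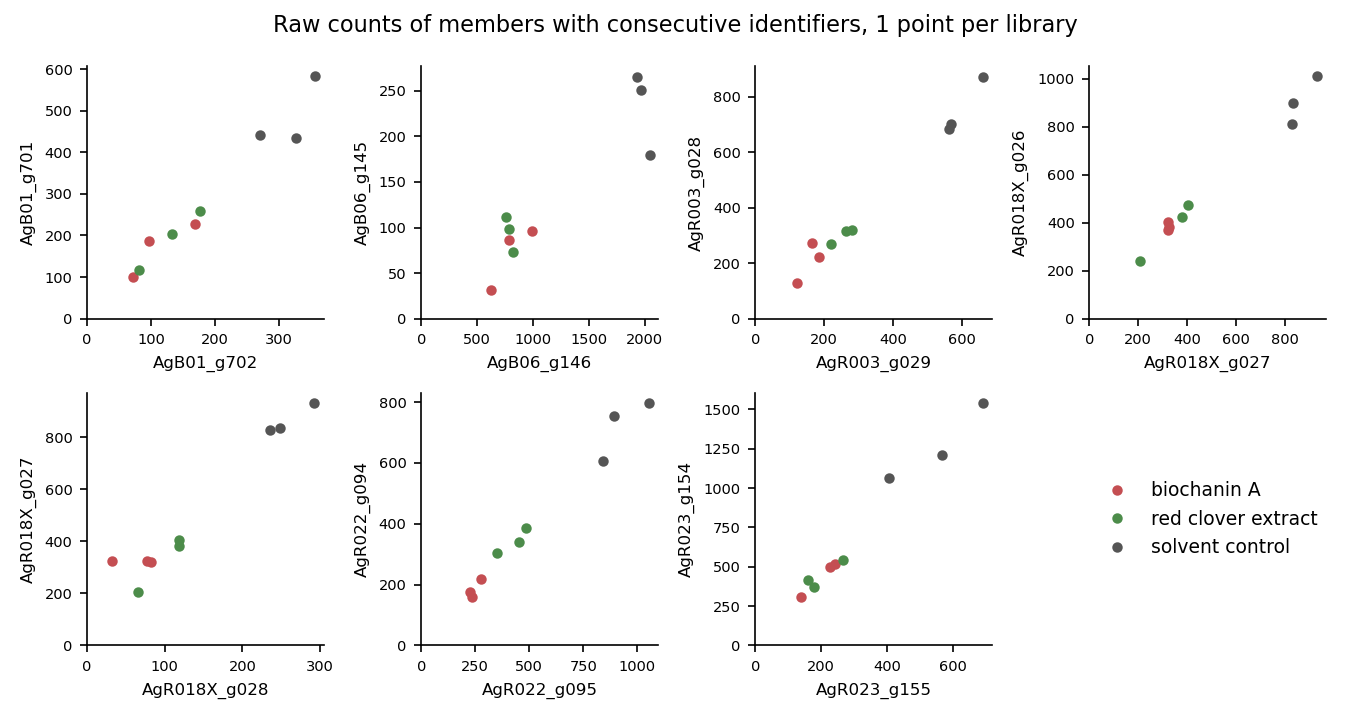
Raw counts of 2 members with consecutive identifiers against each other, 1 panel per pair and 1 point per library, for biochanin A (red), red clover extract (green) and solvent control (grey), with both axes starting at 0. The treated points lie nearer the origin than all control points in each panel, which the rule on CPM brings about. Biochanin A replicate 3 stands off in the panels of AgB06_g145 (0.0510 counts per count of AgB06_g146) and AgR018X_g028 (10.2 counts of AgR018X_g027 per count).

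Some members were separated by 1 gene that did not share their level. AgR042X_g062 lies by number between the members AgR042X_g061 and AgR042X_g063 and averaged 4.77 CPM with biochanin A, 3.46 CPM with extract and 4.91 CPM in control. It was not called with either treatment (adjusted p of 0.92 with biochanin A and 0.23 with extract in edgeR's quasi-likelihood test). Between AgR005_g130 and AgR005_g132, AgR005_g131 had at most 0.672 CPM in any library. Its treated libraries all lay below its control libraries, by log2 changes of -2.12 with biochanin A and -1.31 with extract, neither of them called. AgR007_g296, between AgR007_g295 and AgR007_g297, had at most 0.0968 CPM.

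Genes numbered next to a member, but not members themselves, were called lower more often than genes in general. Of 132 tested genes of this kind 37 were lower with biochanin A (28.03%, against 18.3% of all tested genes) and 12 higher (9.09%, against 16.9%). With extract 25 were lower (18.9%, against 8%) and 8 higher (6.06%, against 9.34%). Both treatments lowered 20 of them (15.2%, against 5.68%). Among the 82 that also lay within the abundance limits, 35.4% were lower with biochanin A and 25.6% with extract, against 23.9% and 10.2% of all non-members within those limits. At 2 identifiers from a member the shares were 23.4% and 10.9%, and at 3 to 5 identifiers 17.9% and 10.2%. Both comparisons share the control libraries.

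**Figure D5:**
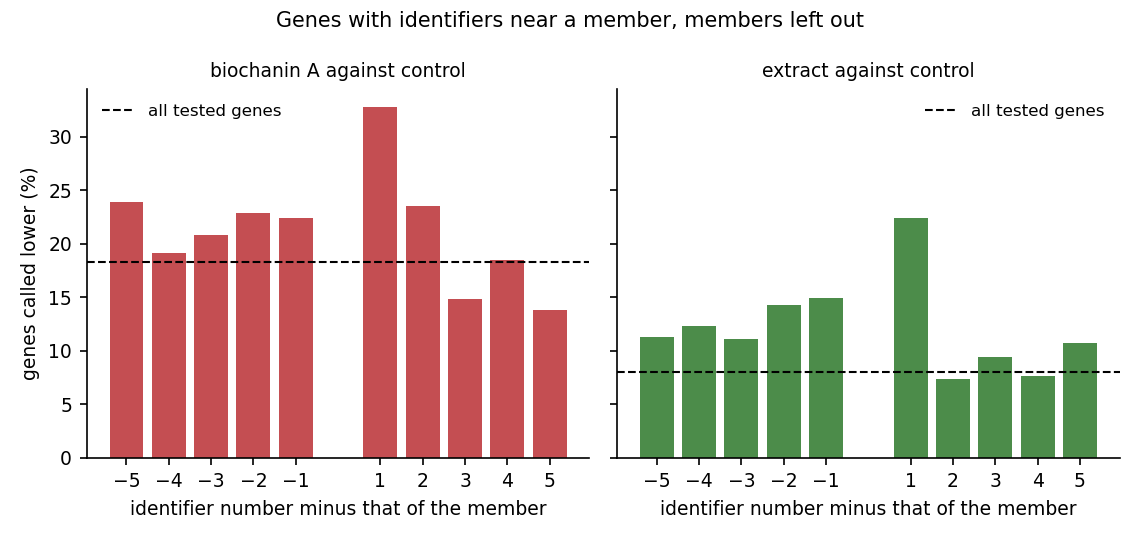
Share of tested genes called lower with biochanin A (left) and with red clover extract (right), by the distance of their identifier number from that of a member, members left out, with the share over all tested genes as a dashed line (18.3% and 8%). The highest bar in both panels is that of the gene numbered 1 after a member, at 32.8% with biochanin A and 22.4% with extract.

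Near AgR001_g655 and AgR033_g018, some genes outside the group also had their lowest mean with biochanin A and their highest in control. The neighbours described here were chosen after their values were seen. AgR001_g656 had 2.455, 2.645 and 1.96 CPM with biochanin A, 8.68, 5.43 and 5.75 CPM with extract, and 9.20, 13.3 and 10.6 CPM in control. It lay between the other groups with extract, by a log2 difference of 1.49 ± 0.23 (SE) from biochanin A (adjusted p = 0.00026 in edgeR's quasi-likelihood test). AgR001_g657, the next by number, went the other way and was raised by both treatments, to 75.8 CPM with biochanin A and 53.8 CPM with extract, against 33.4 CPM in control. AgR001_g653 and AgR001_g658 were also called higher with both treatments. AgR001_g659 was called lower with biochanin A but not with extract.

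AgR033_g017 had 15.6, 17.8 and 12.9 CPM with biochanin A, 33.3, 26.6 and 25.3 CPM with extract, and 31.8, 55.5 and 33.9 CPM in control. AgR033_g020 had 9.82, 11.9 and 10.4 CPM with biochanin A, 15.9, 30.5 and 22.0 CPM with extract, and 24.2, 32.7 and 27.2 CPM in control. Extract overlapped control for both genes, through its replicate 1 for AgR033_g017 and its replicate 2 for AgR033_g020. With biochanin A both lay below all control libraries, by log2 changes of -1.39 ± 0.19 and -1.40 ± 0.18 (adjusted p = 2.0e-05 and 9.3e-06 in edgeR's quasi-likelihood test). With extract the changes of -0.51 and -0.30 were not called, at adjusted p-values of 0.063 and 0.29. The direct difference between the treatments was called for both, at 0.88 ± 0.18 and 1.10 ± 0.18 (adjusted p = 0.0042 and 0.00054). The gene between AgR033_g018 and AgR033_g020, AgR033_g019, had the same order at a low level, with 0.178, 0 and 0.194 CPM with biochanin A, 0.409, 0.466 and 0.804 CPM with extract, and 1.54, 2.20 and 1.90 CPM in control. It was called lower with biochanin A (adjusted p = 0.00078 in edgeR's quasi-likelihood test) but not with extract (0.099) or between the treatments (0.072). AgR033_g022 went the other way, with a log2 change of 0.74 with biochanin A and a direct difference of -0.74 (adjusted p = 0.0049 and 0.013 in the same test). Near AgR022_g094 and AgR022_g095, AgR022_g092 and AgR022_g096 also differed opposite to those members, by -0.17 and -0.27 between the treatments (adjusted p = 0.041 and 0.034). Over all 132 tested genes numbered next to a member, the direct comparison of extract with biochanin A called 7 higher and 7 lower (5.30% each, against 7.37% and 7.39% of all tested genes).

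By the letters of the identifier the members resembled the genes within the abundance limits. AgR identifiers without an X made up 58.8% of the members and 52.3% of those genes, AgB without an X 23.5% and 27.3%, AgR with an X 11.8% and 14.9%, and AgB with an X 5.88% and 5.5%. No source used here states what the letters stand for. The members came from 43 identifier prefixes, 24 of them with 1 member.

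AgR042X was the prefix with the largest share among those with at least 3 members, 5 of 45 genes within the abundance limits (11.1%), against 0.798% over all prefixes. AgR042X_g004 averaged 9.24 ± 1.69 CPM with biochanin A, 10.1 ± 0.3 CPM with extract and 22.3 ± 1.2 CPM in control (SD, n = 3 each), and AgR042X_g063 averaged 5.21 ± 1.04, 5.78 ± 1.11 and 14.8 ± 1.1 CPM in the same groups. AgR042X_g008 kept 42.4% of control with biochanin A and 47.6% with extract, and AgR042X_g061 39.2% and 53.0%. Of the 67 other tested genes of the prefix, 9 were called lower (13.4%, against 18.3% of all tested genes) and 9 higher (13.4%, against 16.9%) with biochanin A. With extract 8 were called lower (11.9%, against 8%) and 4 higher (5.97%, against 9.34%).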

How the data were processed

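RNA of whole larvae was sequenced in 9 libraries. The table the authors deposited holds raw read counts per gene, with no normalization. Its sheet name points to the WBPS19 annotation of Ascaris suum, and the only tool listed, per the submitters' processing notes, is DESeq2, for which they give neither version nor purpose. No source used here states the aligner, the counting tool, the strand setting or the handling of reads that match several genes. Columns were matched to samples by library name, and 0 columns had no sample.

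CPM used TMM factors over all genes. After filterByExpr, the test was edgeR's quasi-likelihood test (glmQLFit and glmQLFTest, version 4.0.16 in R 4.3.3), with TMM over the genes kept, one model over 3 groups, robust dispersion, no replicate block and 6 residual degrees of freedom. Adjustment was by Benjamini-Hochberg over 15177 genes, with a threshold of 0.05. SEs are the log2 difference over the square root of F, and 95% intervals use the total degrees of freedom. The fit was tried on simulated counts with the same dispersion for every gene, and the rule on a few built values. Both checked the calculation and not the uneven spread of these libraries.

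Members, lists and tests were chosen with earlier results of these data known. Named members were those with the deepest summed fall, highest control mean, largest difference between treatments in each direction, lowest treated mean, widest control range, nearest each limit, and the longest run, plus the members called between treatments and neighbours chosen after their values were seen. Some other members were described too: AgR007_g295 and those of the shorter runs and of the AgR042X prefix. Unless called between treatments, these were not among the named genes followed under the alternatives. The labels do not say whether replicates were independent batches of larvae. P-values therefore reflect the spread among these samples alone, and that spread may be technical. Intervals cover this spread and not dose. Alternatives used DESeq2 1.42.0, limma 3.58.1 and other settings given in the closing section.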

Additional observations from a re-analysis of the deposited data

Results flagged for a closer look

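For 9 members and for 4 neighbouring genes, chosen after their values were seen from among others that were also called, the direct test found that extract and biochanin A differed in their effect against the same controls. The members called higher and lower with extract were 7.06% and 3.53% of all members. Of all tested genes, 7.37% and 7.39% were called in those directions, so the members' shares were near or under these. The log2 difference of extract against biochanin A was 2.36 for AgR001_g655, 2.17 for AgR033_g018, 0.809 for AgR022_g094, 0.716 for AgR022_g095, 0.64 for AgR003_g029 and 0.359 for AgB04_g220. It was -0.428 for AgR001_g489, -0.577 for AgR042X_g050 and -1.52 for AgR002_g419. Among those neighbours it was 1.49 for AgR001_g656, 0.882 for AgR033_g017, 1.10 for AgR033_g020 and -0.489 for AgR001_g657. Of 16 alternatives, the call was lost in 7 for AgR003_g029, 6 for AgR002_g419, 5 each for AgR042X_g050 and AgB04_g220, and 1 for AgR001_g489. The other calls listed here held under all 16. With 3 libraries a group, single libraries were not tested for standing apart.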

How the results depend on the processing

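The rule found 85 genes also with DESeq2 size factors, and the same ones, but 181 with library totals in place of TMM, which included all 85. Totals moved the log2 changes of all genes by a median of -0.20 with biochanin A, -0.15 with extract and 0.06 between them. Pseudocounts of 0.25 and 1 gave 94 and 73 genes, control means of at least 2 and 8 CPM gave 102 and 60, and a limit of -1 for extract, chosen after seeing the data, gave 61. Without 1 library it found 83 to 94, of which 70 to 83 were among the 85. The median log2 difference of the members was -0.0659 at that common limit, 0.0379 to 0.1216 without 1 library and positive in the other alternatives. Between 6 and 11 members were called between the treatments without 1 library, and 6 with limma voom or at the common limit. All tested genes called between the treatments numbered 2239, and 1412 to 2573 without 1 library, with 1412 without biochanin A replicate 3 and 1482 without extract replicate 2. Against control, 4419 to 5574 were called with biochanin A and 1906 to 2781 with extract. With a replicate block 11 members and 2201 genes were called between the treatments, and all 9 reported members kept their call. Correlations of the deviations of same-numbered libraries ran from -0.025 to 0.024, under the 0.1 set for pairing. Of 368 values of named genes, 333 kept direction and side of the threshold, 24 lost and 8 gained a call, and 3 uncalled ones changed sign: AgR018X_g026 without extract replicate 1 (0.0753, range without 1 library -0.2724 to 0.0753), and AgR018X_g027 without that library (0.1327) and without biochanin A replicate 3 (0.0039; range -0.205 to 0.1327). Their cause was not tested. The lowest count of a member in a treated library was 20, which limits the precision of its ratios.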
